A study of Mus musculus with 24 samples.

Results

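Polycomb repressor genes encode the subunits of the complexes that keep developmental genes silent, and 10 of them were chosen by name. They were *Ezh1*, *Ezh2*, *Suz12*, *Eed* and *Jarid2* of Polycomb repressive complex 2 (PRC2), *Bmi1*, *Rnf2*, *Cbx2* and *Cbx7* of Polycomb repressive complex 1 (PRC1), and *Asxl1* of the deubiquitinase that acts on the PRC1 mark. Of the 18762 genes listed, 9 were these genes, all of which passed the minimum mean of 10 normalized read counts, and *Asxl1* was not analysed here. The RNA came from haematopoietic stem cells sorted as LSK-SLAM cells, which lack lineage markers and CD48 and carry Sca-1, c-Kit and CD150, from the bone marrow of wild-type C57BL/6 mice, 5 young (4 to 5 months) and 7 old (20 to 22 months). All mice shared the genotype and strain, and no treatment is given in the labels. Besides age, the mouse labels differ in a letter, A or B. Each replicate is called a mouse here, although the labels do not say whether animals were pooled, so the p-values measure the spread between these 12 RNA samples.

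PRC2 places methyl groups on a lysine of the histone H3 tail through 1 of the alternative enzymes EZH1 and EZH2. PRC1 places ubiquitin on histone H2A through its RING subunit and reads the PRC2 mark through a chromobox (CBX) subunit. EZH2 is the enzyme known from dividing cells and EZH1 the one known from resting cells, while BMI1 and CBX7 are known for keeping blood stem cells able to self-renew. Well-known loci under Polycomb silencing are the Hox clusters and *Cdkn2a*, which encodes cell cycle inhibitors.

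The mice differed in depth, from 0.861 to 5.12 M recovered reads, and the shallowest were old mouse 7 and old mouse 5, with 0.861 and 1.13 M. Mouse labels end in the letter A (2 young and 4 old mice) or B (3 young and 3 old mice), the meaning of which is not given in the sources used here. All 6 mice with letter A were shallower than the 6 with letter B. In addition, 4462 of 12354 genes (36.1%) differed between the letters in a fit that also held age. For this reason results are also given within each letter. The markers of the sort were present in every mouse, with *Kit* between 546 and 2049 and *Ly6a* between 35.5 and 193 normalized read counts. The progenitor marker *Cd48*, which the gate excludes, lay between 0.583 and 11.8. The summed level of 27 markers of mature blood lineages ran from 583 to 1538 among young mice and 446 to 5338 among old mice. By letter it ran from 583 to 5338 in letter A and from 446 to 1538 in letter B. Of these markers 2 were at 0 in at least 1 mouse.

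The promoters of 9 of the 10 genes were found in RefSeq (GRCm38.p6), and 3 are printed because their genes carry the opposite age values described next or hold the word searched for. Each window runs from 250 bases before the RefSeq transcript start to base 20 of the transcript, 5′ to 3′ on the gene's strand. Capitals mark a match to the E2F-type words TTTCGCGC, TTTGGCGC, TTTCCCGC or TTTGCCGC, which were searched on both strands.
Ezh2, chr6:47595011-47595280, minus strand: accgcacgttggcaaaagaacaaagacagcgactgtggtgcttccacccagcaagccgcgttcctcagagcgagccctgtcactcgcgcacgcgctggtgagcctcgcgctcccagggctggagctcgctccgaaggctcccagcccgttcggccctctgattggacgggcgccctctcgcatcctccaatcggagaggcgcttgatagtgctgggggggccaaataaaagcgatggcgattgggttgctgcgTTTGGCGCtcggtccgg
Suz12, chr11:79992856-79993125, plus strand: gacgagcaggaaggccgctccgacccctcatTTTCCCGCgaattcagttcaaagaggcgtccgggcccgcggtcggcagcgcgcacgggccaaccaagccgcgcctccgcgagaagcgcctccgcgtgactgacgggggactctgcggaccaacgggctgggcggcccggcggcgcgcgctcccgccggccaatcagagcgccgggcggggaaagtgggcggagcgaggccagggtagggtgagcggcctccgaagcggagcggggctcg
Ezh1, chr11:101226444-101226713, minus strand: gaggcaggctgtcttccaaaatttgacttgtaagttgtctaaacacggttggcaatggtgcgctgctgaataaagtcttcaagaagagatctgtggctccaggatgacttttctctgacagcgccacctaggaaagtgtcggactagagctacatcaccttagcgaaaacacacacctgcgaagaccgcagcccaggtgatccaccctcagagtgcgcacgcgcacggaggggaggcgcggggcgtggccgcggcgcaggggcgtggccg
Such a word was present in the windows of *Ezh2*, with its first base at position 4 of the transcript, and *Suz12*, with its first base 219 bases before the start. It was in neither window of *Jarid2* nor in the windows of *Ezh1*, *Eed*, *Bmi1*, *Rnf2*, *Cbx7* and *Asxl1*. Of all 32851 RefSeq promoter windows of this length 2.02% held such a word, and of 14152 genes with a row and a promoter 2.98% did, against 7 of 33 genes of S phase and mitosis (21.2%). Each of these words contains the bases CG, and the windows differed in the number of CG. The median was 22.5 in the windows of the Polycomb genes and 19 in those of S phase and mitosis genes. It was 11 for genes with a row and 6 for all promoters, so the shares are not from windows of like content. These are matches of letters, not sites of binding.

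*Ezh1* and *Ezh2*, which encode the alternative catalytic subunits of PRC2, had the lowest unadjusted p-values by age among the 9 genes and pointed in opposite directions, but neither passed the test over all genes, which called 0.105% of them. *Ezh1* (chromosome 11, 101191115 to 101226463, minus strand in GRCm38, GENCODE) was at 144, 120.2, 137, 130.3 and 119 normalized read counts in young mice 1 to 5. In the old mice its lowest, median and highest values were 117, 205 and 260.4. All old mice other than old mouse 5 lay above every young mouse, and old mouse 5 lay just below the lowest young mouse. The mean was 130.1 ± 10.9 (SD, n = 5) in young mice against 205 ± 49.3 (SD, n = 7) in old ones, or 1.57 times the young level. The limma log2 difference was 0.61 (95% interval 0.20 to 1.02), with an unadjusted p of 0.00587 and an adjusted p of 0.709. In the exact permutation test over all splits of the mice the two-sided unadjusted p was 0.0126.

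The value of *Ezh1* depended on old mouse 5. Without that mouse the log2 difference was 0.74 and the limma adjusted p 0.0480, in a fit that called 0.259% of all genes. Without old mice 5 and 7, the shallowest, it was 0.79 with a limma adjusted p of 0.0176 (0.397% of all genes called), an alternative added after the data were seen. Within letter B the young mice were at 128.7 ± 9.25 (SD, n = 3) and the old mice at 248 ± 10.7 (SD, n = 3), without overlap. The limma log2 difference there was 0.94 and had an adjusted p of 0.00136 (0.809% of all genes called). The exact permutation p in letter B was 0.100, the smallest possible. Within letter A the young and old mice were at 132 ± 17.1 (SD, n = 2) and 172 ± 38.2 (SD, n = 4) and overlapped. The log2 difference there was 0.35 (limma adjusted p = 0.9997), with an exact permutation p of 0.400 (smallest possible 0.0667). The difference between the letters in the age effect was 0.59 (95% interval -0.14 to 1.33, limma adjusted p = 0.9998), so a larger effect in letter B was not shown.

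*Ezh2* (chromosome 6, 47530139 to 47595341, minus strand) was at 76.5, 86.1, 66.5, 80.6 and 81.4 normalized read counts in young mice 1 to 5. Its lowest, median and highest values in old mice were 50.4, 54.8 and 76.5. Here 6 of 7 old mice lay below every young mouse, and old mouse 6 lay among the young mice. The means were 78.2 ± 7.37 (SD, n = 5) and 57.5 ± 8.67 (SD, n = 7), an old level of 0.735 times the young one. The limma log2 difference was -0.44 (95% interval -0.79 to -0.10, unadjusted p = 0.0151, adjusted p = 0.914), and the exact permutation test gave an unadjusted p of 0.00505. The log2 difference was -0.46 in letter A and -0.46 in letter B, without overlap between the ages in letter B and narrowly without it in letter A. No alternative made *Ezh2* pass: over 30 alternatives the lowest adjusted p was 0.371 (DESeq2).

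**Figure D1:**
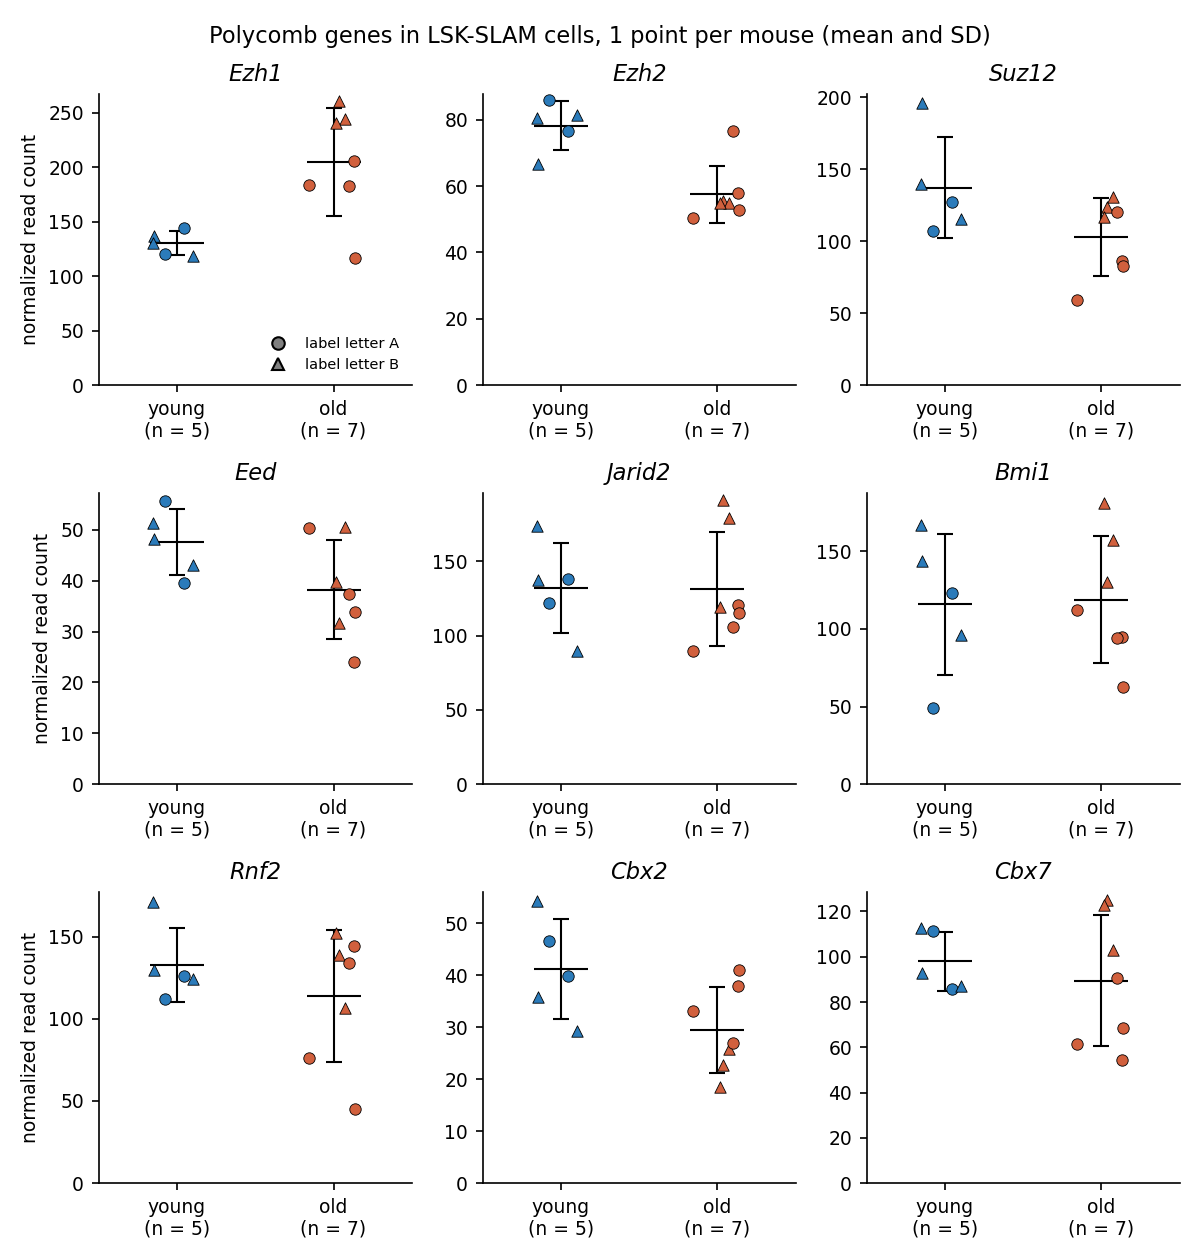
Normalized read counts (vertical axes, from 0) of the 9 Polycomb genes in young and old mice, with 1 point per mouse, circles for label letter A, triangles for letter B, and bars for the mean ± SD. *Ezh1* shows 6 of 7 old mice above all young mice and *Ezh2* shows 6 of 7 old mice below them, whereas the ages overlap widely for *Jarid2* and *Bmi1*.

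Set against each other within each mouse, the pair separated the ages. The log2 ratio of *Ezh2* to *Ezh1* was -0.91, -0.48, -1.03, -0.69 and -0.54 in young mice 1 to 5, and -2.21, -1.84 and -1.13 as the lowest, median and highest value in old mice. No old mouse reached the lowest young mouse, and old mice 5 and 6 lay closest to it. On the linear scale there were 0.607 ± 0.0985 (SD, n = 5) *Ezh2* counts for each *Ezh1* count in young mice against 0.299 ± 0.0975 (SD, n = 7) in old ones. The difference of the log2 ratio was -1.05 (two-sided exact permutation test, p = 0.00253 over all splits, where the smallest possible is 0.00126). With mice exchanged only within letters the exact permutation p was 0.00667 (added after the data were seen). With each mouse left out in turn the exact permutation p was between 0.00303 and 0.00909. Within letter A the difference was -0.81 (exact p = 0.133, smallest possible 0.0667) and within letter B -1.40 (exact p = 0.100, the smallest possible), with no overlap in either letter. The pair was chosen with earlier results of these data known, so these p-values are not independent of those results. The ratio sets a gene higher on average in old mice against one lower on average, in the same mice. Each p-value is of this ratio alone, and no share over all gene pairs is given.

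Both scaffold genes of the PRC2 core had lower mean values in old mice, without passing the test. *Suz12* (chromosome 11, 79993106 to 80034123, plus strand), whose protein holds the complex together, was at 127, 107, 196, 139.7 and 115 normalized read counts in young mice 1 to 5. In old mice the lowest, median and highest values were 59.0, 117 and 131. Of the old mice, 3 lay below all young mice and none above. The lowest values were those of the shallowest libraries, old mice 7 and 5 (59.0 and 82.9). The means were 137 ± 35.1 (SD, n = 5) and 103 ± 26.9 (SD, n = 7). The log2 difference was -0.42 (95% interval -0.88 to 0.04, limma adjusted p = 0.9997) with all mice and -0.22 without these libraries. *Eed* (chromosome 7, 89954654 to 89980983, minus strand), whose protein binds the methyl mark and stimulates the enzyme, was at 39.5, 55.8, 48.3, 51.4 and 43.2 in young mice 1 to 5. Its lowest, median and highest old values were 24.0, 37.3 and 50.6. With means of 47.6 ± 6.45 (SD, n = 5) and 38.2 ± 9.75 (SD, n = 7), its log2 difference was -0.34 (95% interval -0.80 to 0.12, limma adjusted p = 0.9997). Of the old mice, 4 lay below all young mice. Of the 50-base words of *Eed* transcripts, 5.82% were shared with another gene, most with the oppositely oriented *E230029C05Rik*. The strandedness of the counting is not given in the sources used here.

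*Jarid2* (chromosome 13, 44729474 to 44921643, plus strand), which encodes a PRC2 cofactor that helps recruit the complex, showed nearly the same mean at both ages. Young mice 1 to 5 were at 138, 122, 137, 174 and 89.6 normalized read counts, and the old mice at 89.8, 119 and 191 as the lowest, median and highest. The means were 132 ± 30.4 (SD, n = 5) and 132 ± 38.2 (SD, n = 7), the log2 difference was -0.02, and the 95% interval ran from -0.47 to 0.43. Its sign turned when the label letter entered the fit (0.03).

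Among the PRC1 genes, *Rnf2* (chromosome 1, 151458004 to 151500955, minus strand), which encodes the RING1B enzyme that ubiquitinates histone H2A, was at 126, 112, 129.7, 171 and 124 normalized read counts in young mice 1 to 5. In old mice it was at 45.0, 134 and 152 as the lowest, median and highest. The lowest values were those of the shallowest libraries, old mice 5 and 7. The log2 difference was -0.31 (95% interval -0.86 to 0.25, limma adjusted p = 0.9997) with all mice and 0.03 without these libraries. *Bmi1* (chromosome 2, 18677018 to 18686629, plus strand), whose PCGF protein partners RING1B, was at 123, 49.0, 143, 167 and 96.4 in young mice 1 to 5. In old mice it was at 62.4, 112 and 181 as the lowest, median and highest, so that the ages overlapped almost fully. Its log2 difference was 0.08 (95% interval -0.54 to 0.69, limma adjusted p = 0.9997), and -0.20 without young mouse 2, its lowest value. Of its 50-base words 16.7% were shared, nearly all with *Gm5946*, so a part of its reads could be divided between the genes.

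The chromobox genes encode the readers of the PRC2 mark. *Cbx2* (chromosome 11, 119022962 to 119031270, plus strand) was at 39.8, 46.6, 35.9, 54.4 and 29.4 normalized read counts in young mice 1 to 5. The lowest, median and highest old values were 18.5, 26.9 and 41.0, and 4 old mice lay below all young mice. The means were 41.2 ± 9.65 (SD, n = 5) and 29.5 ± 8.23 (SD, n = 7), and the log2 difference was -0.49 (95% interval -1.01 to 0.03, limma adjusted p = 0.9997, exact permutation p = 0.0518). *Cbx7* (chromosome 15, 79915807 to 79971119, minus strand) was at 85.9, 112, 92.6, 113 and 87.0 in young mice 1 to 5. The old mice, at 54.2, 90.7 and 125 as the lowest, median and highest, reached both below and above the young range. Its log2 difference was -0.19 (95% interval -0.65 to 0.28), with -0.53 in letter A and 0.26 in letter B. The log2 ratio of *Cbx2* to *Cbx7* was -1.25 ± 0.20 (SD, n = 5) in young mice against -1.55 ± 0.86 (SD, n = 7) in old ones (difference -0.30, exact permutation test, p = 0.458). Within letter B all 3 old mice lay below the 3 young mice (difference -1.04, exact p = 0.100, the smallest possible), and within letter A the difference was 0.21 (exact p = 0.667).

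**Figure D2:**
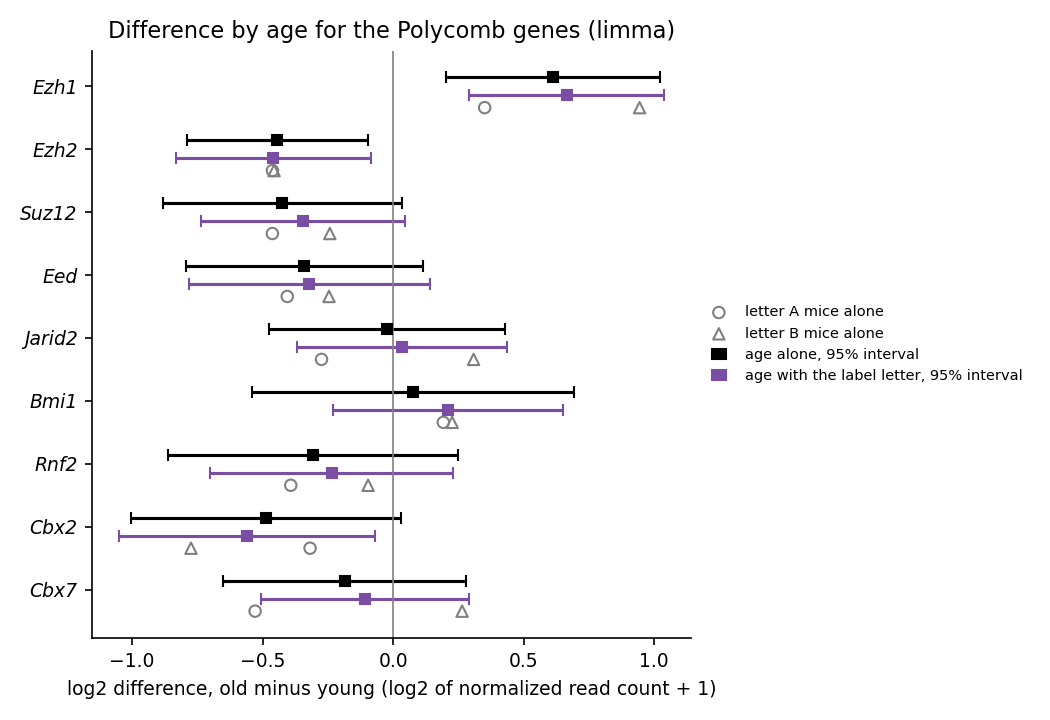
Log2 difference between old and young mice (horizontal axis) for each Polycomb gene, with squares and 95% intervals from the limma fits with age alone (black) and with age and the label letter (purple), and open symbols for the mice of each letter alone. The intervals of *Ezh1* (0.20 to 1.02) and *Ezh2* (-0.79 to -0.10) in the fit with age alone lie on opposite sides of 0, and *Cbx7* changes side between the letters.

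Over the 9 genes, 0 were called by age at an adjusted p under 0.05 with limma, beside 13 of all 12354 genes (0.105%). At an unadjusted p under 0.05 there were 2, *Ezh1* and *Ezh2*, beside 3.95% of all genes. The edgeR quasi-likelihood test, the edgeR likelihood-ratio test and DESeq2 also called 0 of the 9. Each had the same number, 2, at an unadjusted p under 0.05. The limma log2 differences were below 0 for 7 of 9 genes with a median of -0.31, beside 52.3% of all genes and a median of -0.02. Without the 2 shallowest mice 5 of 9 were below 0 and the median was -0.03. With the letter added to the fit, 0 of the 9 and 0.299% of all genes were called. The values were 0.66 for *Ezh1* (adjusted p = 0.166), -0.46 for *Ezh2* (adjusted p = 0.696) and -0.56 for *Cbx2* (adjusted p = 0.827, limma). In none of the 9 genes were the 2 ages free of overlap, which was the case for 0.461% of all genes. Among bulk samples, fewer cells of a type and less RNA per cell cannot be told apart.

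Between the label letters, *Bmi1* was the only one of the 9 genes called, beside 36.1% of all genes, or 10.5% called higher in letter B. It ran from 49.0 to 123 normalized read counts in letter A and from 96.4 to 181 in letter B, with a log2 difference of 0.78 (95% interval 0.34 to 1.21, limma adjusted p = 0.00703). *Suz12* (0.46, limma adjusted p = 0.0576) and *Cbx7* (0.45, limma adjusted p = 0.0655) came closest among the others, and both were higher on average in letter B. The letter comparison depended on the scaling. Rescaling by median ratios moved the median of all genes by 0.29 on the log2 scale and called 5901 genes (47.8%), of which 3360 were higher and 2541 lower in letter B, against 1301 higher and 3161 lower without it. After rescaling, 6 of the 9 Polycomb genes were called higher in letter B, among them *Bmi1* (1.08), *Suz12* (0.75) and *Cbx7* (0.75). *Bmi1* was called under each of the 20 alternatives. In the test of whether the age effect differed between letters, 0 of 9 Polycomb genes and 0.0162% of all genes were called. *Cbx7* had the lowest unadjusted p (0.0414, log2 difference of effects 0.79, adjusted p = 0.9998).

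Per kb of exon, the order of the 9 genes differed between the ages in the place of *Ezh1* and in the order of *Rnf2* and *Bmi1*. In young mice *Rnf2* (32.1), *Bmi1* (29.1) and *Suz12* (27.7) had the highest mean normalized read counts per kb and *Ezh1* followed at 17.5. In old mice *Ezh1* (27.5) stood beside *Bmi1* (29.9) and *Rnf2* (27.6) and above *Suz12* (20.8). With both ages together, over 12 mice, *Bmi1* was at 29.6 ± 10.2 (SD), *Rnf2* at 29.5 ± 8.23, *Suz12* at 23.7 ± 6.86 and *Ezh1* at 23.3 ± 7.16 normalized read counts per kb. They were followed by *Cbx7* at 14.3 ± 3.58, *Jarid2* at 13.6 ± 3.46, *Eed* at 11.01 ± 2.48, *Ezh2* at 9.91 ± 1.98 and *Cbx2* at 8.07 ± 2.44 per kb. Each neighbour in this joint order lay within 1 SD of the next except *Ezh1* and *Cbx7*, where *Ezh1* was higher in 11 of 12 mice. *Ezh1* was above *Ezh2* per kb at both ages, with 17.5 ± 1.47 against 11.7 ± 1.10 in young mice and 27.5 ± 6.63 against 8.62 ± 1.30 in old mice. The lengths are those of all annotated exons of a gene joined, so a gene of which a short isoform is used has a level that is too low on this scale.

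**Figure D3:**
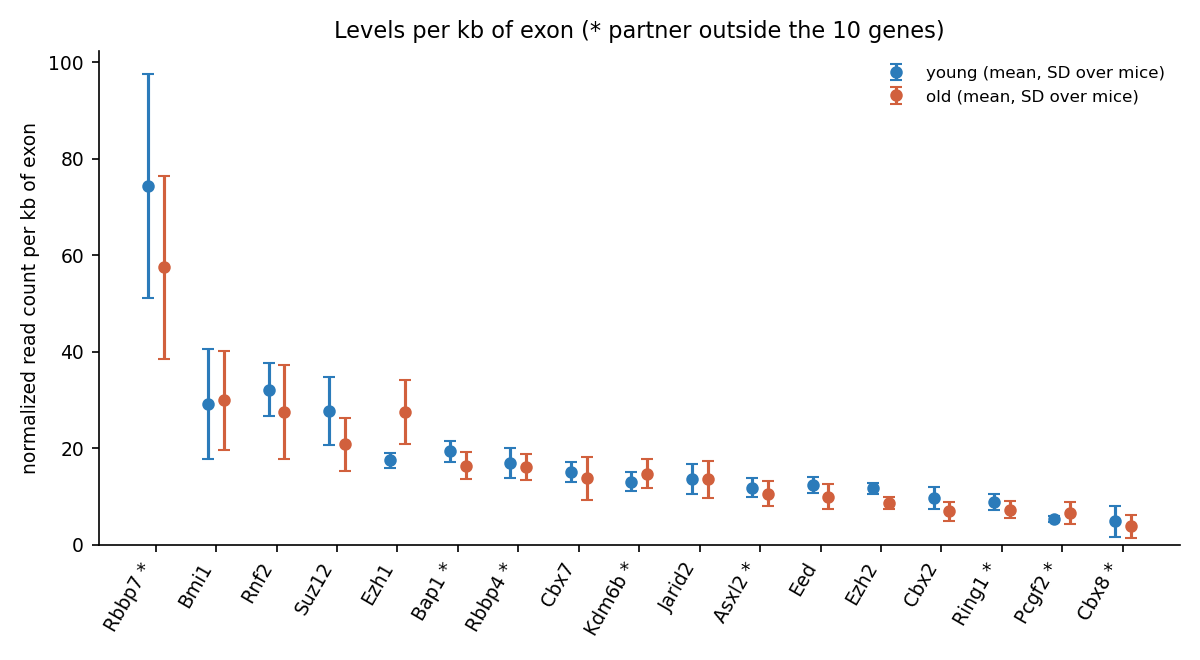
Normalized read counts per kb of exon (vertical axis, from 0) of the 9 Polycomb genes and of 8 partner genes (marked with *) in young (blue, n = 5) and old mice (orange, n = 7), as the mean ± SD over mice. *Rbbp7* is the most abundant, at 74.4 per kb in young mice, and *Ezh1* goes from 17.5 per kb in young to 27.5 per kb in old mice.

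The partners of these proteins showed no gene called by age. Of 49 further subunits of PRC2, PRC1 and the deubiquitinase, 44 were tested, 0 were called with limma and 0 had an unadjusted p under 0.05, and their median log2 difference was -0.13, beside -0.02 for all genes, and -0.0031 without the 2 shallowest mice. Both edgeR tests and DESeq2 likewise gave 0 of the 44 called and 0 at an unadjusted p under 0.05. The histone chaperones of the PRC2 core were at -0.07 for *Rbbp4* and -0.36 for *Rbbp7*. The RING1B paralogue *Ring1* was at -0.29. The BMI1 paralogue *Pcgf2* was at 0.20, and the further chromobox gene *Cbx8* was at -0.35. The deubiquitinase *Bap1* and its cofactor *Asxl2* were at -0.25 and -0.18. The lowest unadjusted p-values were those of *Rybp* of variant PRC1 (log2 difference 0.45, unadjusted p = 0.0818, limma adjusted p = 0.9997) and *Scml4* (0.41, unadjusted p = 0.0915, limma adjusted p = 0.9997). Other subunits named by the same rule were *Phf1* (0.23), *Lcor* (0.15) and *Mtf2* (-0.15) for PRC2. For PRC1 they were *Pcgf6* (0.23), *Scmh1* (-0.25), *Tfdp1* (-0.44) and *Bcorl1* (-0.30). For the deubiquitinase they were *Foxk2* (-0.30) and *Hcfc1* (-0.41). In the letter comparison 12 of the 44 were called higher and 3 lower in letter B, among them *Rbbp7* (0.72, limma adjusted p = 0.00999). Of all genes 36.1% were called in that comparison, 10.5% of all genes being higher in letter B.

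Enzymes that remove or oppose the Polycomb marks were also uncalled by age, with 0 of 11 called by limma, either edgeR test or DESeq2, 0 of 11 at an unadjusted p under 0.05 in each. Their median log2 difference was -0.02, and it lay above 0 with the label letter in the fit (0.06) and without the 2 shallowest mice (0.16). *Kdm6b*, which removes the PRC2 methyl mark, was at 91.2 ± 13.5 (SD, n = 5) normalized read counts in young mice against 103 ± 21.2 (SD, n = 7) in old ones, a log2 difference of 0.16 (95% interval from the same fit -0.21 to 0.53). The activating methyltransferase *Kmt2a* and the remodelling genes *Smarca4* and *Arid1a* were at -0.33, -0.26 and -0.29. Between the letters 7 of the 11 were called, all higher in letter B, beside 36.1% of all genes called, or 10.5% called higher in letter B.

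Loci known to be silenced by Polycomb had 36 of 40 genes with a row, 23 of which reached the minimum mean. None of the 23 was called by age with limma, either edgeR test or DESeq2. In limma 3 had an unadjusted p under 0.05, all higher in old mice. The median log2 difference was 0.12, with 15 of 23 genes above 0, but -0.03 with 11 above 0 once the label letter entered the fit. The 3 genes were the homeobox genes *Hoxb8*, *Hoxb3* and *Hoxb5*. *Hoxb8* was at 10.7 ± 4.05 (SD, n = 5) in young mice against 21.5 ± 4.61 (SD, n = 7) in old ones (log2 difference 0.99, limma adjusted p = 0.780). *Hoxb3* was at 31.8 ± 8.88 and 53.7 ± 20.3 (0.71, limma adjusted p = 0.904) and *Hoxb5* at 22.4 ± 7.21 and 38.4 ± 11.02 (0.75, limma adjusted p = 0.904). Grouped by cluster after their values were seen, 7 of 7 tested *Hoxb* genes had a log2 difference above 0, with a median of 0.71, and 2 of 6 tested *Hoxa* genes did, with a median of -0.14. With the letter in the fit 7 of 7 *Hoxb* genes (median 0.78) and 1 of 6 *Hoxa* genes (median -0.09) were above 0. In letter A alone 6 of 7 *Hoxb* genes (median 0.29) and 0 of 6 *Hoxa* genes (median -0.41) were above 0. In letter B alone 7 of 7 *Hoxb* genes (median 1.03) and 4 of 6 *Hoxa* genes (median 0.17) were. *Cdkn2a* ran from 1.76 to 7.69 normalized read counts among young mice and 1.27 to 20.52 among old mice, under the minimum mean of 10, and was not tested.

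**Figure D4:**
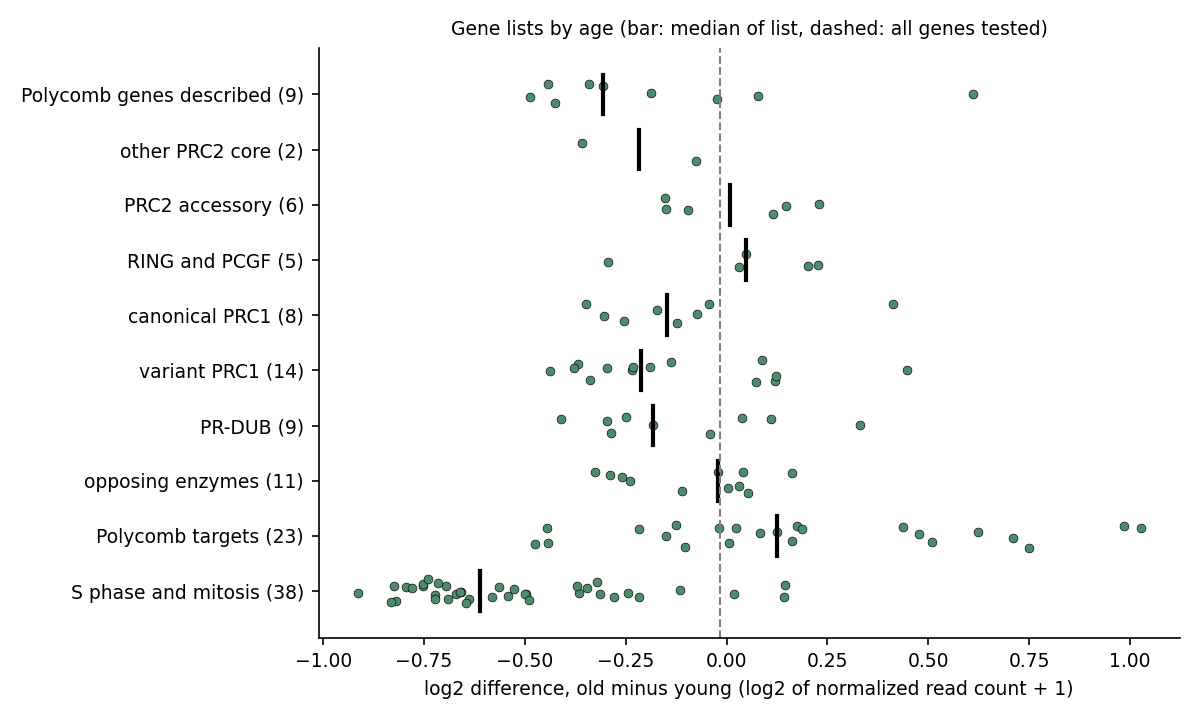
Log2 difference between old and young mice (horizontal axis) of each tested gene in 10 lists, with a black bar at the median of the list, a dashed line at the median of all genes tested (-0.02) and the number of genes tested in parentheses. The S phase and mitosis list lies furthest to the left, with a median of -0.61, and the Polycomb targets reach furthest to the right.

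Genes of S phase and mitosis are given beside the *Ezh2* values as a description, with no test of the list, because most of them also had lower values in old mice. Of 38 tested genes 35 had a log2 difference below 0 by age, the median was -0.61, 0 were called with limma and 21 had an unadjusted p under 0.05. *Uhrf1* (-0.91, limma adjusted p = 0.256), *Cdt1* (-0.82, limma adjusted p = 0.603) and *Top2a* (-0.75, limma adjusted p = 0.642) had the lowest p-values, and over all mice *Uhrf1* was the 1 gene of the list that the edgeR likelihood-ratio test and DESeq2 called. In letter B mice alone limma called 6 of the 38, all lower in old mice, beside 0.809% of all genes. They were *Ccna2* (-1.26, limma adjusted p = 0.000747), *Tyms*, *Top2a*, *Uhrf1*, *Mki67* and *Mcm6* (-0.64, limma adjusted p = 0.0455). In letter A alone 0 were called and 1 had an unadjusted p under 0.05 (limma). The mean log2 value of these 38 genes was 6.18 ± 0.24 (SD, n = 5) in young mice against 5.65 ± 0.21 (SD, n = 7) in old ones (difference -0.53), and the ages overlapped. The difference was -0.22 in letter A and -0.82 in letter B. For *Ezh2* it was -0.46 in both letters, and for the log2 ratio of *Ezh2* to *Ezh1* it was -0.81 in letter A and -1.40 in letter B. Old mouse 6, with the highest *Ezh2* value of the old mice, also had the highest mean of the 38 genes among them (5.94). Old mouse 5 came next (5.82), with *Ezh2* at 52.9. Whether these values move together was not tested.

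Among the progenitor markers, *Cd34* was at 182 ± 53.0 (SD, n = 5) normalized read counts in young mice against 84.6 ± 10.4 (SD, n = 7) in old ones (log2 difference -1.04, limma adjusted p = 0.0544, and 0.00856 with the label letter), and it was called by both edgeR tests and DESeq2. Of 4 tested genes 2 had a log2 difference below 0, both at an unadjusted p under 0.05 (limma). The other 2 had one above 0 (highest 0.53), and 0 of them reached that level. The second lower gene was *Flt3*, which ran from 42.6 to 74.3 normalized read counts among young mice and 14.2 to 46.6 among old mice. The summed level of 5 progenitor markers with a row ran from 289.9 to 510.0 among young mice and 269 to 372 among old mice, and none of them was at 0 in any mouse. None of 13 stem cell markers was called by age with limma (0 at an unadjusted p under 0.05, and 0 called and 1 unadjusted with either edgeR test or DESeq2). Their log2 differences were above 0 for 7 genes and below 0 for 6, from -0.44 to 0.42 with a median of 0.0086. The lowest p-values were those of *Slamf1*, *Procr* and *Ctnnal1*, at 0.42, 0.36 and 0.35. In letter A alone 3 of the 13 were above 0 and 10 below (median -0.17), and in letter B alone 12 were above and 1 below (median 0.26). In letter B alone limma called *Slamf1* higher in old mice (0.88, limma adjusted p = 0.0235). Among the lineage markers the platelet gene *Pf4* had the lowest p (-1.33, limma adjusted p = 0.796), followed by *Nkg7* (-0.74) and *S100a9* (1.12). The median of the 20 tested lineage markers was 1.19 in letter A, with 0 called and 10 at an unadjusted p under 0.05, and -0.98 in letter B, where limma called *Mpo* and *Pf4* lower in old mice. The part of cell cycle genes and of progenitor or lineage cells in the *Ezh1* and *Ezh2* values was not tested.

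**Figure D5:**
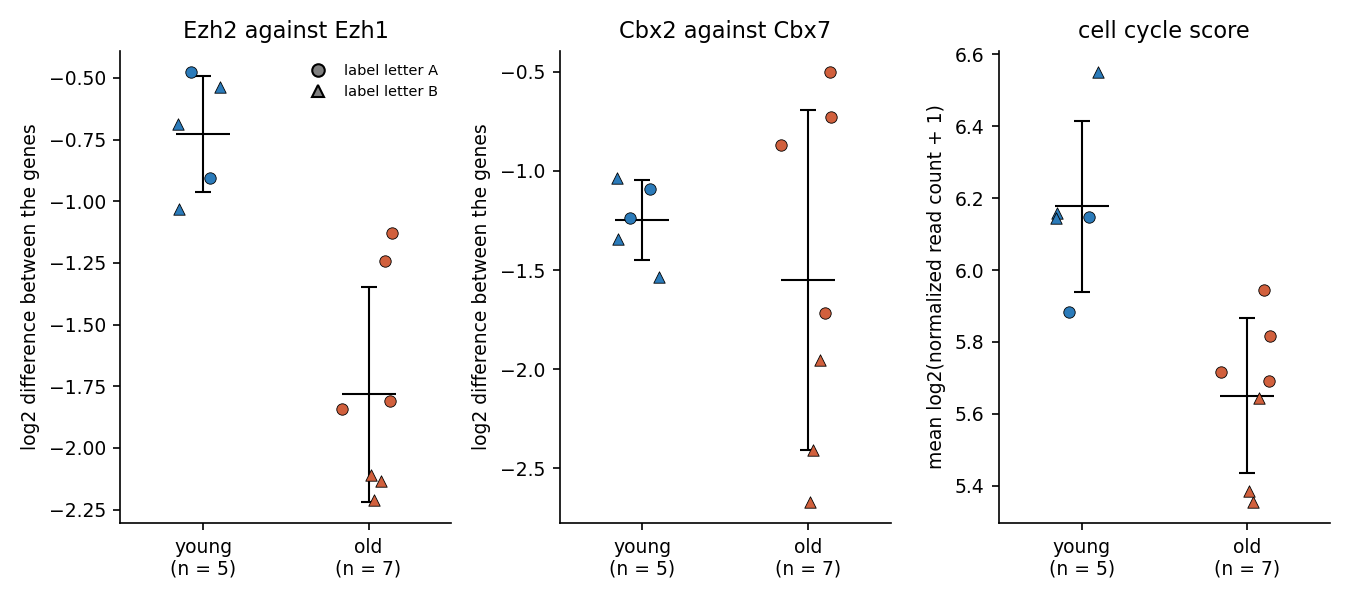
Log2 ratio of *Ezh2* to *Ezh1* (left), log2 ratio of *Cbx2* to *Cbx7* (middle) and mean log2 value of 38 genes of S phase and mitosis (right) in young and old mice, with 1 point per mouse, circles for letter A, triangles for letter B and bars for the mean ± SD (vertical axes do not start at 0). The ratio of *Ezh2* to *Ezh1* does not overlap between the ages, while that of *Cbx2* to *Cbx7* spreads from -2.67 to -0.50 in old mice.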

How the data were processed

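RNA-seq libraries were made from total RNA of 15000 sorted cells per sample, of which 300 pg entered the TotalScript kit after ribosomal depletion. The authors deposited normalized read counts, a signal per gene and mouse on a scale close to reads per 1000000. The submitters' processing notes list FastQC 0.11.8, STAR 2.5.4b, edgeR 3.24.3 and the build mm10, while the counting tool and annotation are not given in the sources used here. The labels hold 24 samples, 2 (L1 and L2) for each of 12 mice, and the table has 1 column per mouse. A second table with the authors' own fold changes and p-values was not used.

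Values in each column were whole multiples of 1 step (100% of values within 0.01 of a whole read), which gave the recovered reads. Values were tested as log2(value + 1) with limma 3.58.1 (trend, two-sided) over the 12354 genes whose mean reached 10, with Benjamini-Hochberg adjustment over all of them and a threshold of 0.05. The pseudocount shrinks the differences of low genes. Single values were compared by exact permutation of mice, two-sided. The p planned for the mean of the S phase and mitosis genes is not given, since the list is shown for its direction. Recovered reads were tested with edgeR 4.0.16 and DESeq2 1.42.0 as alternatives, and the scripts were tested on simulated data. The members, gene lists and tests were chosen with earlier results of these data known. Named genes were the 9 members, partners named in advance of the fit whatever their values (*Cbx6* has no row here, and 1 partner is not reported here), and of each further list the genes called by age or, where none was called, up to 3 with the lowest unadjusted p. No replicates agreed within sampling noise (chi-square per gene 6.50 to 85.9 over 31 pairs).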

Additional observations from a re-analysis of the deposited data

Results flagged for a closer look

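In 1 of 24 groups of values examined, 1 mouse lay far from the others of its age. Old mouse 6 had 76.5 normalized read counts of *Ezh2*, while the other 6 old mice lay between 50.4 and 57.9. The gap was 0.715 of the whole range of the old mice. About 1 in 20 groups is expected to be flagged by chance, or 1.2 of 24, which is the rate of flagging and not of a gap of this size.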

How the results depend on the processing

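Over 30 alternatives *Ezh1* stayed above 0 (0.35 to 0.94) and *Ezh2* (-0.57 to -0.39), *Suz12*, *Eed* and *Cbx2* stayed below it. The number of Polycomb genes called by age was 0 in 27 alternatives and 1, *Ezh1*, with letter B mice alone, without the 2 shallowest mice, and without old mouse 5 (0 to 1 with each mouse left out). The sign turned for *Jarid2* with the letter as a covariate (0.034), letter B alone (0.31), replicates 1 to 5 with and without the block (0.13), DESeq2 (0.00011), edgeR with the letter (0.029), without the 2 shallowest mice (0.11) and on leaving out single mice (-0.15 to 0.083). It also turned for *Bmi1* on leaving out single mice (-0.20 to 0.24), for *Rnf2* without the 2 shallowest mice (0.032) and for *Cbx7* in letter B alone (0.26). The cause was not tested.

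The *Ezh2* to *Ezh1* difference missed the threshold only where too few mice were left to reach it, in letter A alone (-0.81), letter B alone (-1.40) and the replicate block (-1.15, sign-flip exact p = 0.0625, the smallest 5 pairs allow), and with single mice left out it was -1.16 to -0.98. Same-numbered young and old mice had a mean r of 0.137 (5 pairs, from -0.559 to 0.615), against -0.023 for 30 pairs with different numbers. With 5 pairs of such spread this cannot show whether the numbers pair the mice. The block called 19 genes by age against 8 in the same mice without it. The *Cbx2* to *Cbx7* difference turned in letter A alone (0.21) and with thinned reads (0.032), and was -0.48 to -0.11 with single mice left out. The difference in the mean of S phase and mitosis genes, a description with no test, was -0.22 in letter A, -0.82 in letter B and -0.60 to -0.43 with single mice left out.

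Genes called by age, 13 with all mice, were 2 without the trend, 37 with the letter as a covariate, 1 and 100 in letters A and B alone, 8 in replicates 1 to 5, 5 after rescaling by median ratios and 5 by TMM, 41 with the edgeR likelihood-ratio test, 58 with DESeq2, 43 with edgeR and the letter, 49 without the 2 shallowest mice, and 3 to 32 with single mice left out. With the letter in the fit, 37 genes became 8 without the trend, 118 without the 2 shallowest mice and 23 to 76 with single mice left out. The 4462 genes called by letter became 2288 without the 2 shallowest mice and 2943 to 5003 with single mice left out. The 2 genes of the interaction became 1 with no minimum mean or with thinned reads, 0 without the trend, 4 without the 2 shallowest mice and 0 to 6 with single mice left out.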
